A study of Homo sapiens with 2 samples.

Results

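The genes described here encode receptor tyrosine kinases outside the EGF and ephrin receptor families, the ligands that engage them, and a few companions of both (the carrier FGFBP1 and the clearance receptor IGF2R). They were found on the array by gene symbol, from a list drawn up with earlier results of these data known: 51 genes were listed, 50 of them had a named probe set on the array, of 17687 named genes in all, and each of the 50 had 1 probe set. NTF3, the ligand of NTRK3, was the gene without a named probe set and is not analysed here. Of the 50 genes, 33 were receptors, 16 were ligands and 1 was the carrier.

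Expression was measured with 1 Affymetrix array on total RNA from MKN1 cells overexpressing RHOA Y42C and 1 array from MKN1 cells overexpressing wild-type RHOA. MKN1 is an established human gastric cancer line, RHOA is a GTPase of the actin cytoskeleton, and Y42C is a tyrosine-to-cysteine substitution found in gastric cancer. Both lines carried a RHOA transgene in the pBABE vector, both were selected in puromycin and both were grown in RPMI with fetal bovine serum; the labels do not say whether they were pools or clones. Parental or empty-vector cells were not analysed here, so a difference cannot be assigned to either line. With 1 array per line there is no spread between replicates, no test and no p-value, and every difference below compares these 2 arrays.

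Receptor tyrosine kinases are single-pass membrane proteins. A bound ligand brings receptors together, they phosphorylate each other, and the phosphorylated tails recruit adaptor proteins that start the RAS-MAPK, PI3K-AKT and phospholipase C pathways. In stomach cancer this class is best known through amplified or overexpressed receptors such as MET and FGFR2, and many carcinomas also release ligands, such as PDGF and VEGF proteins, that act on neighbouring stromal and vascular cells.

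Values are the deposited signals, taken as log2, so a difference of 1 corresponds to 2-fold. Differences are Y42C minus wild-type. A gene was called measured when its signal on either array was no lower than a minimum, the 95th percentile of 349 olfactory receptor genes (5.14 in the Y42C array and 5.17 in the wild-type array). Olfactory receptors, genes of the nose, stand here for background, and 22 of them passed this minimum themselves. Those 22 had a median difference of 0.20, with 13 above 0 and 9 below. The median signal of all 349 was 3.73 in the Y42C array and 3.60 in the wild-type array. Among all named genes 66.7% were measured, and 66.0% of the receptor and ligand genes, 33 of 50. Probe sets differ in brightness for the same amount of RNA, so levels are compared between arrays and not between genes, and 1 probe set per gene cannot separate splice forms. The epithelial label was met by 7 of 8 marker genes, among them EPCAM (13.53 in the Y42C array and 13.30 in the wild-type array), while the adhesion gene CDH1 was below the minimum in both (3.86 in Y42C and 3.92 in wild-type).

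The receptor and ligand genes lay mostly on the higher side in the Y42C array. Of 33 measured genes, 7 were higher by 2-fold or more and 0 were lower by as much, against 7.46% and 9.8% of all 11802 measured genes. The 7 genes, 21.2% of the 33, were the receptors NTRK3, IGF1R and ROR1 and the growth factors PDGFA, PDGFB, PDGFC and VEGFC. A difference above 0 was found for 26 of the 33, against 45.2% of all measured genes, and below 0 for 6, against 54.2%, with INSR at 0.00. FLT1, RET and ALK, measured only through the Y42C array, are among the 26, and ROR2, measured only through the wild-type array, is among the 6. Past 1.5-fold there were 17 higher and 3 lower genes, against 17.8% and 23.4% of all measured genes, and past 4-fold 1 higher and 0 lower, against 1% and 0.585%. The 17 include FLT1 and ALK and the 3 include ROR2 by deposited values alone. Their bounds of 1.02-fold, 1.06-fold and 1.36-fold do not reach 1.5-fold. The median difference of the 33 genes was 0.61, against -0.07 over all measured genes. Raising values under the minimum to that minimum gave 0.39. With no minimum it was 0.36 over all 50 genes, of which 7 were 2-fold higher or more, against 5.52% of all named genes, and 0 were 2-fold lower, against 6.76%. In RNA of a whole culture, more cells that use a gene and more RNA per cell cannot be told apart. Genes of like signal level (20 bins) had differences with a scaled median absolute deviation between 0.474 and 0.919 in the bins that held these genes. It was 0.919 in the dim bin of FLT1, ALK and ROR2 and 0.474 in the bright bin of IGF2. A difference as large as the value of its own bin is therefore common.

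**Figure D1:**
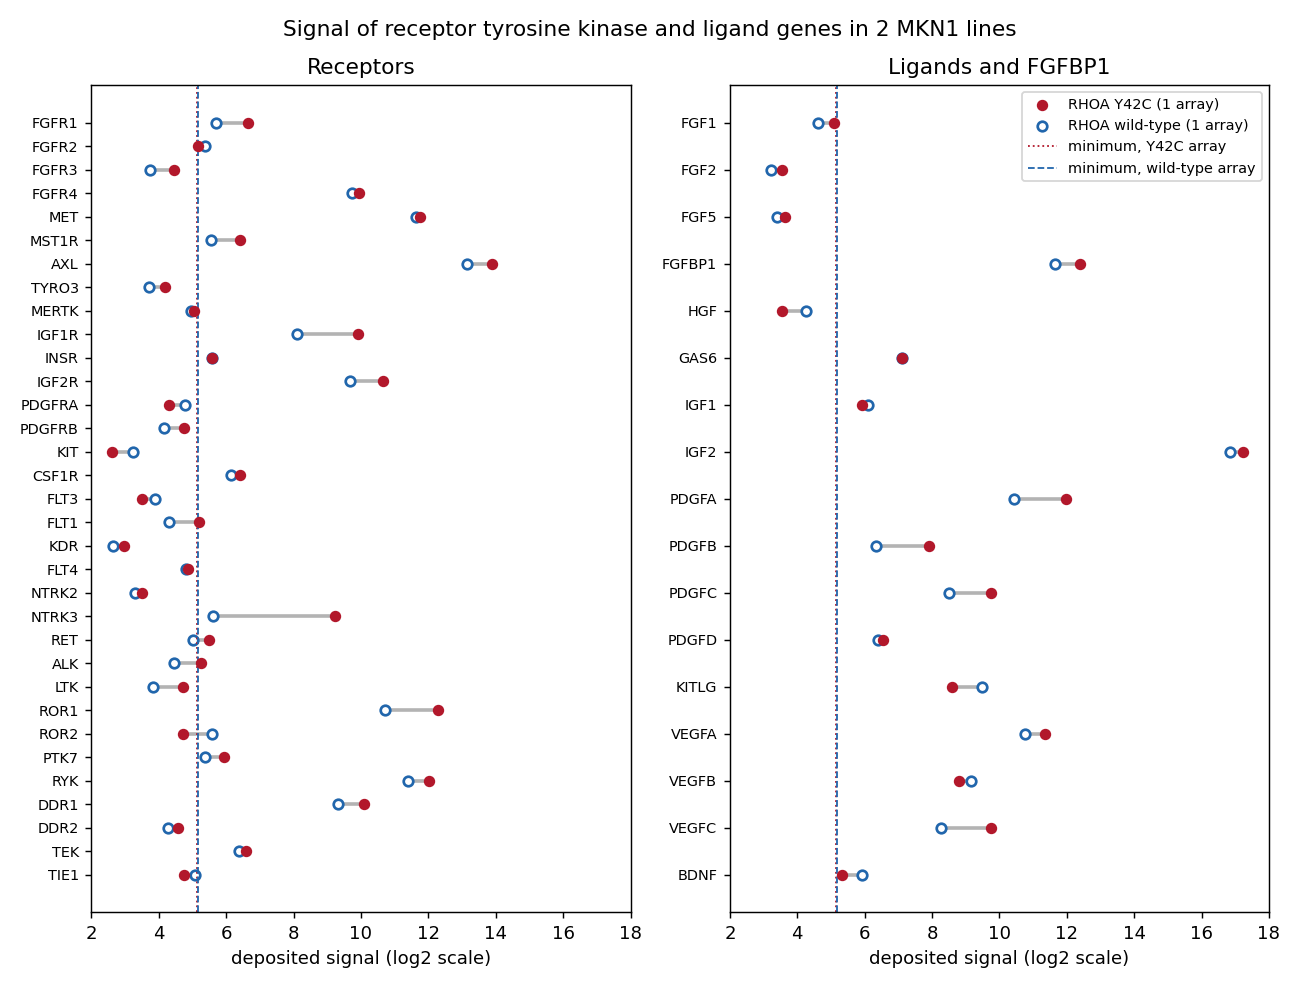
Deposited signal (log2 scale, x axis) of the 33 receptor genes and of the 16 ligand genes with FGFBP1, with the RHOA Y42C array as filled red points and the RHOA wild-type array as open blue points, 1 array each. Vertical lines mark the minimum of each array, 5.14 for Y42C and 5.17 for wild-type; NTRK3 shows the widest gap (9.22 in Y42C and 5.62 in wild-type), and PDGFRA, PDGFRB, KIT and KDR lie left of both lines on both arrays.

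NTRK3 encodes the neurotrophin-3 receptor, known for the growth and survival of sensory neurons and, as a fusion partner, from several tumours. Its signal was 9.22 in the Y42C array, against 5.62 in the wild-type array, which is 0.45 above that array's minimum. The difference of 3.60, or 12.1-fold, ranked 7 of 11802 measured genes from the most positive. NTRK2, the BDNF receptor and closest relative among these genes, was below the minimum on both arrays (3.50 in Y42C and 3.28 in wild-type). BDNF itself was measured on both, at 5.33 in the Y42C array and 5.92 in the wild-type array, a difference of -0.59. Of 6 named markers of neurons and Schwann cells, 2 were measured. SYN1 differed by -0.12 (5.85 in Y42C and 5.97 in wild-type). NEFL was below the minimum in the Y42C array (4.65) and 0.02 above it in the wild-type array (5.19). Their part in the NTRK3 values was not tested.

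The RefSeq windows from 250 bases before to 50 bases after a gene's start (GRCh38.p14) are shown for NTRK3, which had the widest gap of the receptors, and for the ligands PDGFA and VEGFC. They show how GC-rich these starts are and where EGR letters stand in them. Capitals mark matches to GCGNGGGCG, the letters bound by EGR transcription factors, searched on both strands. The windows are chr15:88256690-88256989 (minus strand) for NTRK3, chr7:520177-520476 (minus strand) for PDGFA, one of its 4 windows, and chr4:176792873-176793172 (minus strand) for VEGFC.
NTRK3: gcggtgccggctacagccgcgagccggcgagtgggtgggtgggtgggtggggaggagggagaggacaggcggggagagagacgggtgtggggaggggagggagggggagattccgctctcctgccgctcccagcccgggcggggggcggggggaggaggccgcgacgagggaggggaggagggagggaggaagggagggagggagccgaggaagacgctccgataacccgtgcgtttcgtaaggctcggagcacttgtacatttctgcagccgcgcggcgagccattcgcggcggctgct
PDGFA: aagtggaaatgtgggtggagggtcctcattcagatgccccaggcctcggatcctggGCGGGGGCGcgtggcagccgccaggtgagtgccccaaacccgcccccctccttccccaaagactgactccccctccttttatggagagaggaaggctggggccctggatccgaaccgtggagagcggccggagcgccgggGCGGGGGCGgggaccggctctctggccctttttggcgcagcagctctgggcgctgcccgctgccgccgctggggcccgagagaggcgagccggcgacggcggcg
VEGFC: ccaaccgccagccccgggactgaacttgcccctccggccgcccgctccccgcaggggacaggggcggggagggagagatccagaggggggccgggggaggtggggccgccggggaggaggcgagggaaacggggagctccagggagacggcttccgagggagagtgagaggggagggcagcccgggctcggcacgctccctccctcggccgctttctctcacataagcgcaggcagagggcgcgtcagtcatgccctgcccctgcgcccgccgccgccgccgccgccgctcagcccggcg

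Of the 7 genes past 2-fold, 5 matched the promoter table, with 8 windows in all, 4 of them of PDGFA; PDGFB and PDGFC did not match. Their GC content ran from 69% to 81.7% with a median of 72.3%, against a median of 58.7% over all 35116 windows of this length and 63.5% (41.7% to 84.7%) over the 46 windows of the other measured receptor and ligand genes, so the ranges overlap. EGR letters stood in 2 of the 8 windows, both of PDGFA, in 8 of the 46 and in 9.43% of all windows. In the PDGFA window shown they begin at positions -194 and -54, counted from the start site. The AP-1 letters TGANTCA (7.71% of all windows) and the TEAD letters GGAATG (14% of all windows) were in 0 of the 8, and no match overlapped a different motif. A match is only the letters in the window and shows no binding.

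Among receptors of the insulin and IGF family, which drive growth and metabolism, IGF1R stood out. IGF1R, the IGF receptor that signals, had a signal of 9.90 in the Y42C array and 8.09 in the wild-type array, a difference of 1.81 (3.51-fold, rank 170 from the most positive). The insulin receptor INSR, its closest homologue, was 5.58 on both arrays. This is 0.44 above the minimum in the Y42C array and 0.41 in the wild-type array, so the equality is of values close to background. IGF2R, which has no kinase and carries IGF2 to the lysosome, was 10.64 in the Y42C array and 9.66 in the wild-type array. This 1.97-fold difference fell just short of 2-fold as deposited, and passed it when the arrays were centred, quantile-normalized or freed of a trend on level. Of the ligands, IGF2 was 17.23 in the Y42C array and 16.84 in the wild-type array, while IGF1 was 5.92 in the Y42C array and 6.09 in the wild-type array. Both ligands therefore stayed within 0.39 of equality, and IGF1 lay less than 1 unit above the minimum on each array.

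The PDGF ligands, mitogens for fibroblasts and pericytes, were higher in 3 of 4 cases by more than 2-fold. Over all measured genes, 7.46% were 2-fold or more higher. PDGFA was 11.97 in the Y42C array and 10.42 in the wild-type array, a difference of 1.55 (2.93-fold). PDGFB was 7.90 in the Y42C array, against 6.33 in the wild-type array, a difference of 1.57 (2.97-fold). PDGFC was 9.75 in the Y42C array and 8.50 in the wild-type array, a difference of 1.25 (2.38-fold). Each of these 3 was thus the brighter on the Y42C array and above the minimum on both. They ranked 279, 270 and 528 from the most positive of 11802 genes. PDGFD, which like PDGFC is secreted in a latent form, differed by 0.13 (6.54 in Y42C and 6.41 in wild-type). Their receptors were not measured: PDGFRA had 4.29 in the Y42C array and 4.77 in the wild-type array, and PDGFRB had 4.76 in the Y42C array and 4.15 in the wild-type array, all below the minimum. Of the 4 other named markers of fibroblasts and mural cells, 1 was measured, ACTA2 at 6.99 in the Y42C array and 7.01 in the wild-type array.

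VEGFC, the main lymphatic growth factor, was 9.76 in the Y42C array and 8.26 in the wild-type array, a difference of 1.5 (2.83-fold, rank 307). VEGFA, the principal blood vessel growth factor and a hypoxia target, differed by 0.61 (11.36 in Y42C and 10.75 in wild-type). VEGFB was lower in the Y42C array by 0.36 (8.79, against 9.15 in the wild-type array). So the 3 VEGF genes spanned both directions and 1 passed 2-fold. The receptors that these ligands use on endothelium were at background: KDR (2.96 in the Y42C array and 2.65 in the wild-type array) and FLT4 (4.88 in Y42C and 4.82 in wild-type) were below the minimum on both arrays. FLT1 reached it on the Y42C array alone (5.20, against 4.31 in the wild-type array), and was at least 1.02-fold higher. Of the angiopoietin receptors, TEK was measured (6.59 in Y42C and 6.39 in wild-type) and TIE1 was not (4.75 in Y42C and 5.06 in wild-type). In the endothelial marker list, which holds 4 of these receptors, 5 of 12 genes were measured, and the defining junction gene CDH5 was below the minimum on both arrays (4.05 in Y42C and 3.66 in wild-type), whereas the transcription factor gene ERG was measured on both (8.72 in Y42C and 8.94 in wild-type).

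**Figure D2:**
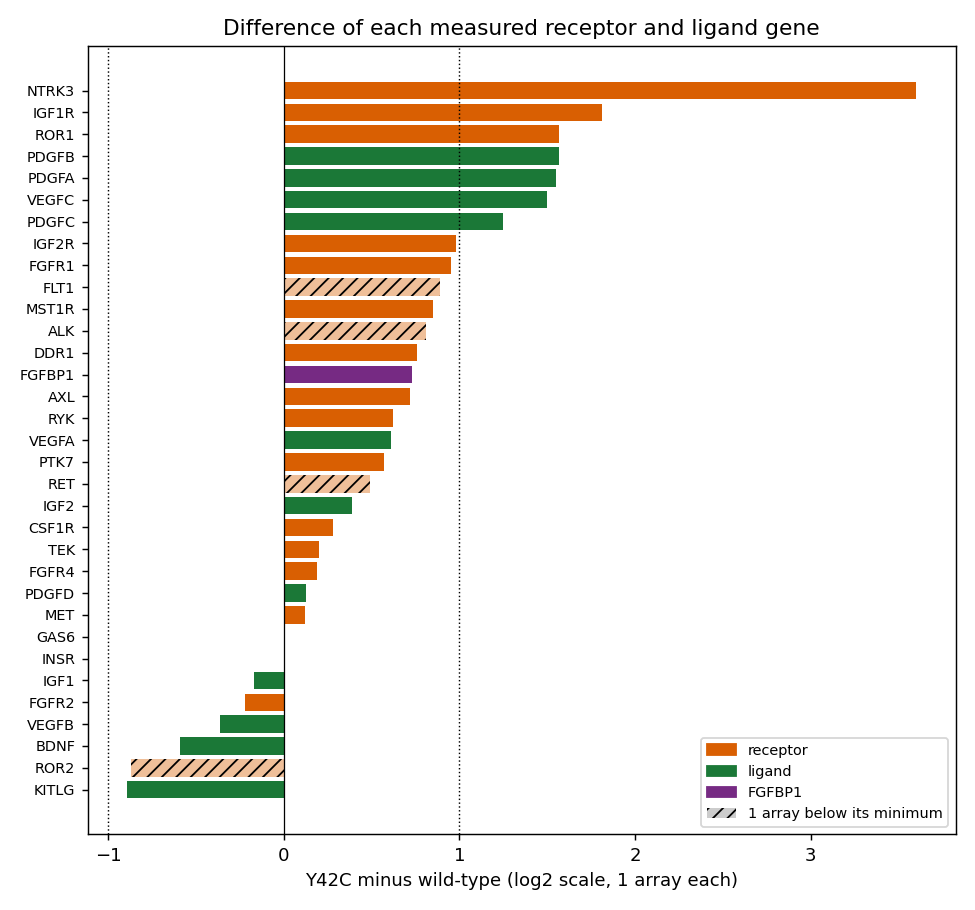
Y42C minus wild-type difference (log2 scale, x axis) of each of the 33 measured genes, sorted, with receptors in orange, ligands in green and FGFBP1 in purple; dotted lines mark 2-fold. NTRK3 extends to 3.60, 6 more genes pass 1, KITLG is lowest at -0.89, and hatched bars (FLT1, ALK, RET and ROR2) had 1 array below its minimum.

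ROR1, RYK, PTK7 and ROR2 bind Wnt proteins or act beside their receptors, and most have little or no kinase activity. ROR1, an oncofetal receptor for WNT5A, was 12.28 in the Y42C array and 10.71 in the wild-type array, a difference of 1.57 (2.97-fold, rank 270, shared with PDGFB). RYK was 12.02 in the Y42C array and 11.40 in the wild-type array, and PTK7 was 5.93 in the Y42C array and 5.36 in the wild-type array. Those differences of 0.62 and 0.57 were higher in the Y42C array, as for ROR1, but under 2-fold. ROR2, the close homologue of ROR1, lay the other way, at 4.71 in the Y42C array and 5.58 in the wild-type array. Since 4.71 is below the minimum, ROR2 is given as at least 1.36-fold lower. WNT5A, a ligand of both, differed by 0.26 (7.93 in Y42C and 7.67 in wild-type).

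AXL and MET, both often raised in invasive carcinoma, were far above the minimum on both arrays. AXL was 13.88 in the Y42C array and 13.16 in the wild-type array, a 1.65-fold difference. Its relatives TYRO3 (4.17 in Y42C and 3.71 in wild-type) and MERTK (5.04 in Y42C and 4.95 in wild-type) were below the minimum on both. GAS6, the ligand that links these receptors to phosphatidylserine on dying cells, differed by 0.01 (7.12 in Y42C and 7.11 in wild-type). MET, the HGF receptor, differed by 0.12 (11.75 in Y42C and 11.63 in wild-type), and HGF, normally supplied by stromal cells, was below the minimum on both arrays (3.55 in Y42C and 4.27 in wild-type). MST1R, the relative of MET that binds macrophage-stimulating protein, was higher by 1.80-fold (6.40 in the Y42C array, against 5.55 in the wild-type array). Every gene of these 2 families was thus either unmeasured or less than 2-fold apart.

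The measured FGF receptors were under 2-fold as deposited. FGFR1 came nearest, with 6.64 in the Y42C array and 5.69 in the wild-type array (1.93-fold), and passed 2-fold after centring or removal of a trend on level. FGFR4 differed by 0.19 (9.93 in Y42C and 9.74 in wild-type) and FGFR2 by -0.22 (5.15 in Y42C and 5.37 in wild-type), the FGFR2 values lying within 0.2 of the minimum. FGFR3 was not measured (4.45 in Y42C and 3.75 in wild-type), nor were the ligands FGF1 (5.09 in Y42C and 4.60 in wild-type), FGF2 (3.55 in Y42C and 3.23 in wild-type) and FGF5 (3.64 in Y42C and 3.41 in wild-type). FGFBP1, a secreted protein that frees FGFs from heparan sulfate in the matrix, was well above the minimum and 1.66-fold higher (12.38 in the Y42C array, against 11.65 in the wild-type array). The carrier was thus measured while the 3 listed ligands were at background. Of the other FGF genes, some were measured on both arrays, such as FGF8 (9.04 in Y42C and 8.88 in wild-type). Others, such as FGF7, were below the minimum on both.

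KITLG, the stem cell factor, had the most negative difference of the 33 genes, -0.89, with 8.60 in the Y42C array and 9.49 in the wild-type array (1.85-fold lower). Its receptor KIT was below the minimum on both (2.62 in Y42C and 3.23 in wild-type), as was FLT3 (3.50 in Y42C and 3.88 in wild-type). CSF1R, the macrophage colony-stimulating factor receptor, was measured on both, at 6.42 in the Y42C array and 6.14 in the wild-type array. In the leukocyte list, which holds CSF1R and FLT3, 5 of 10 named genes were measured; PTPRC, the pan-leukocyte gene, reached the minimum on the Y42C array alone (5.39, against 4.61 in the wild-type array), and the monocyte gene CD14 was 5.67 in the Y42C array and 7.45 in the wild-type array. CD68, a lysosomal gene of macrophages that other cells also use, was 10.15 in the Y42C array and 10.66 in the wild-type array. Their part in the CSF1R values was not tested.

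The collagen receptor DDR1, an epithelial gene, was 10.08 in the Y42C array and 9.32 in the wild-type array (1.69-fold), and its mesenchymal relative DDR2 was not measured (4.58 in Y42C and 4.26 in wild-type). RET (5.50 in Y42C and 5.01 in wild-type) and ALK (5.25 in Y42C and 4.44 in wild-type) reached the minimum on the Y42C array alone, which gives bounds of at least 1.26-fold and 1.06-fold higher. LTK, the relative of ALK, was below it on both (4.71 in Y42C and 3.83 in wild-type). FLT1, RET and ALK were thus measured only through the Y42C array, and ROR2 only through the wild-type array.

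**Figure D3:**
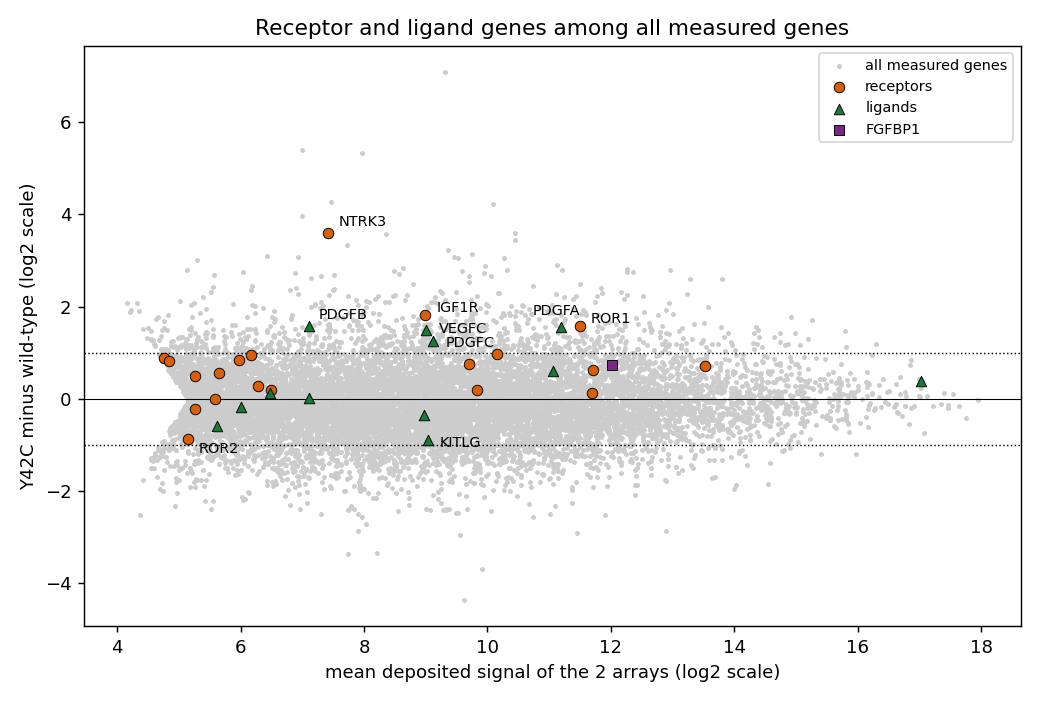
Mean signal of the 2 arrays (x axis, log2 scale) against the Y42C minus wild-type difference (y axis, log2 scale) for all 11802 measured genes (grey), with receptors as orange circles, ligands as green triangles and FGFBP1 as a purple square. The 7 labelled genes above the upper dotted line are at least 2-fold higher, 0 of these receptors and ligands lie below the lower one, and NTRK3 at 3.60 lies near the upper edge of the grey cloud.

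Receptors and ligands are given apart, with no test of one against the other. Of 20 measured receptors, 17 were above 0, 3 of them at least 2-fold (15% of the 20), with a median of 0.67. The 17 include FLT1, RET and ALK, which were measured only through the Y42C array. Of 12 measured ligands, 8 were above 0, 4 of them at least 2-fold (33.3% of the 12), with a median of 0.26. Over all measured genes, 45.2% were above 0 and 7.46% at least 2-fold higher, with a median of -0.07. The ligand genes were thus the 4 that passed 2-fold and 8 between -0.89 and 0.61. In several families a ligand and its own receptor could be set side by side. PDGFA, PDGFB and PDGFC were past 2-fold and PDGFRA and PDGFRB unmeasured, VEGFC was past 2-fold and KDR and FLT4 unmeasured. IGF1R was past 2-fold with IGF2 1.31-fold higher, and AXL and GAS6 were both measured and under 2-fold.

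Other genes that act with these receptors came from 6 lists, also drawn up with earlier results of these data known. The shares below describe these lists and are no separate support. In the list of proteases that process their ligands, with the inhibitors of those proteases, 5 of 14 measured genes passed 2-fold upward and 0 downward (35.7% and 0%, against 7.46% and 9.8% of all measured genes), and the median difference was 0.50. FURIN, a proprotein convertase known to cleave the precursors of PDGFA, PDGFB, VEGFC and IGF1R, was 10.03 in the Y42C array and 8.02 in the wild-type array (4.03-fold), and its relative PCSK5 was 2.55-fold higher (12.48 in Y42C and 11.13 in wild-type). SPINT1, an inhibitor of HGF-activating proteases, was 6.96-fold higher (11.72 in Y42C and 8.92 in wild-type), and ST14, the matriptase it inhibits, 4.76-fold (13.38 in Y42C and 11.13 in wild-type). PLAU, the urokinase, was 6.50-fold higher (9.91 in Y42C and 7.21 in wild-type). The heparan sulfate sulfatase SULF1 had the most negative difference of that list, -0.89 (9.42 in Y42C and 10.31 in wild-type). The list holds SPINT1 together with ST14, an inhibitor and the protease it blocks.

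Adaptors and docking proteins had 2 of 23 measured genes past 2-fold upward and 1 downward (8.7% and 4.35%, against 7.46% and 9.8% of all measured genes), and their median difference was 0.19. IRS1, which docks on IGF1R and INSR, was higher by 3.39-fold (9.50 in the Y42C array and 7.74 in the wild-type array). GRB10, an adaptor known to restrain these same receptors, was 2.04-fold higher (8.58 in Y42C and 7.55 in wild-type). PLCG2, a phospholipase C, was 2.27-fold lower (5.55 in the Y42C array, against 6.73 in the wild-type array). FRS2 had no named probe set here. IRS2, the relative of IRS1, lay at 0.89 (6.46 in Y42C and 5.57 in wild-type), and GRB14, the relative of GRB10, was below the minimum on both arrays (5.13 in Y42C and 4.41 in wild-type). Of the general adaptors, GRB2 lay at -0.63 (12.40 in Y42C and 13.03 in wild-type) and SHC1 at 0.91 (11.67 in Y42C and 10.76 in wild-type).

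Phosphatases, ubiquitin ligases and other regulators of receptors went both ways. Past 2-fold were 3 of 21 measured genes upward and 3 downward (14.3% each, against 7.46% and 9.8% of all measured genes). Of the 21, 15 were above 0 and 6 below, and the median difference was 0.11. PTPN14 was 4.06-fold higher (11.02 in Y42C and 9.0 in wild-type), and ERRFI1, a feedback inhibitor of EGF receptors, 2.23-fold (15.65 in Y42C and 14.49 in wild-type). PTPRB counted as higher by its deposited values, but the wild-type array gave 3.12, under the minimum, and the bound was 1.01-fold. PTPRS was 3.23-fold, SOCS2 2.75-fold and LRIG3 2.68-fold lower in the Y42C array.

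Co-receptors and ligand carriers had 5 of 20 measured genes past 2-fold upward and 1 downward (25% and 5%, against 7.46% and 9.8% of all measured genes), with a median difference of 0.34. The FGF receptor partners FGFRL1, a receptor without a kinase domain, and FLRT2 were higher by 2.33-fold (8.46 in Y42C and 7.24 in wild-type) and 2.17-fold (7.20 in Y42C and 6.08 in wild-type), and FLRT3 by at least 1.76-fold. FLRT3 counted among the 5 by its deposited values, but the wild-type array gave 4.76, under the minimum. IGFBP6, which prefers IGF2, was 2.28-fold higher (13.54 in Y42C and 12.35 in wild-type). SORL1, a sorting receptor, was 2.03-fold higher (8.08 in Y42C and 7.06 in wild-type). IGFBP7 was 2.79-fold lower (6.42 in the Y42C array, against 7.90 in the wild-type array). The VEGF co-receptors NRP1 (9.77 in Y42C and 9.67 in wild-type) and NRP2 (13.25 in Y42C and 13.45 in wild-type) were within 0.20 of equality. Of the other measured IGFBP genes, IGFBP2, IGFBP3 and IGFBP4 were higher by 0.59, 0.19 and 0.31, and IGFBP1 was equal on both arrays. IGFBP7 was thus the only measured IGFBP gene that was lower in the Y42C array.

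Further ligands of these receptors made up a list of 21 measured genes, of which 1 passed 2-fold upward and 1 downward (4.76% each, against 7.46% and 9.8% of all measured genes). The median difference was 0.08. FGF18 was 2.69-fold higher (7.83 in Y42C and 6.40 in wild-type), and FGF13, an FGF homologue that stays inside the cell, was 2.60-fold lower (5.71 in the Y42C array, against 7.09 in the wild-type array). Of the other receptor tyrosine kinases outside the listed 33, 2 of 7 named genes were measured, AATK, 2.85-fold higher (8.21 in Y42C and 6.70 in wild-type), and LMTK2, which differed by 0.39 (10.48 in Y42C and 10.09 in wild-type).

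**Figure D4:**
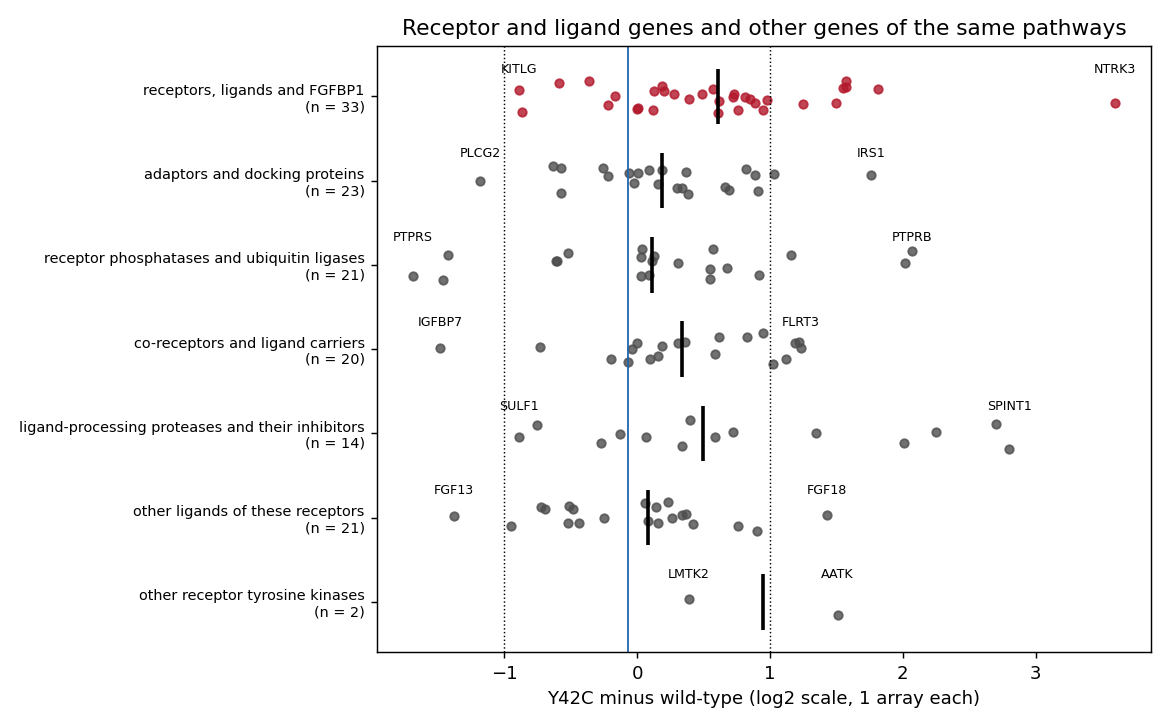
Y42C minus wild-type difference (log2 scale, x axis) of every measured receptor, ligand and FGFBP1 (red) and of every measured gene of 6 lists of genes that act with them (grey), with the list median as a black bar, the median of all measured genes as a blue line (-0.07) and 2-fold as dotted lines. The medians are 0.61 for the receptors and ligands, 0.50 for the ligand-processing proteases and 0.08 for the other ligands.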

How the data were processed

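Total RNA of 2 MKN1 lines was measured on 1 array each. The authors made the deposited values with Affymetrix Expression Console, per the submitters' processing notes. Its version, background correction, summary, normalization and log base were not given in the sources used. The 21448 values per array run from 2.23 to 18.16, hence the log2 scale assumed for every fold, and were used as deposited (medians 6.36 for Y42C and 6.42 for wild-type). Arrays give no read depth, and their number limits the precision.

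The platform annotation gave 1 symbol for 17709 probe sets, several for 0 and none for 3739; all 17709 matched the gene table by Entrez identifier. Probe sets of 1 gene were averaged. The minimum, the 2-fold threshold and the lower bounds on a fold (brighter array's signal over the dimmer array's minimum) are as given in the results. With 1 array per group no statistical test was run. The code that counts genes past 2-fold was checked on simulated data. The receptor and ligand genes and all lists were chosen with earlier results of these data known. Every receptor and ligand gene is named; from the other lists, genes past 2-fold, list extremes, and a few genes chosen after their values were seen. Alternatives covered array centring, quantile normalization, a trend on level, other minimums, a constant added to the signal, the brightest probe set and other thresholds. The software was statsmodels 0.14.6, NumPy 2.4.6, matplotlib 3.10.9, pandas 2.3.3 and Python 3.11.15.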

Additional observations from a re-analysis of the deposited data

How the results depend on the processing

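All 7 genes past 2-fold stayed past it, in the same direction, under each of the 10 alternatives of scaling, minimum and summary. Only centring, quantile normalization, the trend on level and the added constant could change the differences of these 7 genes. Each had 1 probe set and lay above the minimum on both arrays, and the other minimums could only leave a gene out. None of the 32 genes with a difference other than 0 changed sign under the 10 alternatives where it stayed measured. At the 99th percentile 26 genes were measured, and at the array median 24. Median centring, and likewise a lowess fit on level (span 0.3) taken off the differences, brought the count to 9, adding IGF2R and FGFR1, and quantile normalization brought it to 8, adding IGF2R. The count of genes at least 2-fold lower was 0 throughout these. The median difference was 0.36 with no minimum and 0.39 with lower values raised to the minimum, where genes at background enter or are held, and lay between 0.49 and 0.72 under the other alternatives. At 1.5-fold, 17 genes were higher and 3 lower, against 17.8% and 23.4% of all measured genes, and at 4-fold 1 was higher. FLT1 and ALK among the 17 and ROR2 among the 3 do not reach 1.5-fold by their bounds. No count of the 6 pathway lists moved by more than 1.5 times with the array median as minimum. No paired analysis was possible because each line has 1 array. Signal over background limits FGFR2, INSR, PTK7, BDNF, FLT1, RET, ALK and ROR2, whose values lie close to the minimum on at least 1 array. The wild-type values of MST1R, NTRK3 and FGFR1 were also close to it, at 0.38, 0.45 and 0.52 above.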

Other observations

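Genes next to the 7 receptor and ligand genes past 2-fold had median differences between -0.32 and 0.30, against -0.07 over all measured genes. The 10 measured genes on either side of NTRK3 had a median of 0.01 (3 of 20 at least 2-fold higher, 0 lower), those around IGF1R -0.28 (1 higher, 3 lower) and those around ROR1 -0.08 (4 higher, 1 lower). For VEGFC the median was -0.14 (1 higher, 3 lower), for PDGFC -0.32 (0 higher, 3 lower), for PDGFB 0.08 (6 higher, 3 lower) and for PDGFA, with 10 neighbours, 0.30 (1 higher, 0 lower). The shares over all measured genes were 7.46% higher and 9.8% lower. Neighbours were taken by gene order alone, and this was looked at after the 7 genes were known.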
